A study of Mus musculus with 24 samples.

Results

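The genotype difference in vehicle-treated striatum was read from the deposited comparison of R6/1-vehicle with WT-vehicle. Members were the genes with at least 1 FPKM (fragments per kilobase of transcript, scaled to the reads mapped, and so a level corrected for length and depth) in either group, which gave 13886 of 24341 genes in the table. R6/1 mice carry the first exon of the human huntingtin gene with an expanded CAG repeat as a hemizygous transgene on a C57BL/6J background, and their wild type littermates served as controls. Both groups held male mice that received the solvent (DMSO diluted in saline) by intraperitoneal injection 5 times per week for 3 weeks, starting at 11 to 14 weeks of age, and the striatum of 1 hemisphere was taken 18 h after the last injection, at 14 to 17 weeks. WT-vehicle comprised 5 libraries and R6/1-vehicle 6. A further 6 wild type and 7 R6/1 mice received the inhibitor RGFP109 (30 mg/kg) on the same schedule, and these are used here as a second set of animals of the same genotypes.

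The striatum is the input nucleus of the basal ganglia, and most of its neurons are GABAergic projection neurons. Those of the indirect pathway express the dopamine receptor Drd2, the adenosine receptor Adora2a and the enkephalin precursor Penk, whereas those of the direct pathway express the dopamine receptor Drd1 and the peptide precursors Tac1 and Pdyn. In Huntington's disease these neurons are lost early and lose expression of the genes that define them before they die. The R6/1 transgene is driven by the human huntingtin promoter and is therefore not restricted to these neurons.

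The table gives 1 FPKM value per group, pooled over its libraries by the authors, so no spread between mice, interval or test accompanies the values below, and the depth is unknown. A gene was counted as higher or lower when the log2 ratio of R6/1-vehicle to WT-vehicle passed 0.5 in either direction (a fold of 1.41) after 0.05 FPKM had been added to both values. This addition understates the ratio of genes with low values. The yardstick in these files was the ratio between groups of the same genotype, which also holds any effect of RGFP109. Between WT-RGFP109 and WT-vehicle the median absolute log2 ratio was 0.07, and 2% of the members other than short RNA loci passed the fold (0.498% higher and 1.5% lower in WT-RGFP109). Between R6/1-RGFP109 and R6/1-vehicle 1.22% passed it (0.423% higher and 0.795% lower).

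R6/1-vehicle striatum had more genes below than above the level of WT-vehicle. Of all 13886 members, 590 were higher (4.25%) and 1504 were lower (10.8%) in R6/1-vehicle. The members included 425 loci of short RNAs (microRNAs and small nucleolar RNAs for the most part), whose annotated length is small beside a sequenced fragment, and 158 of them were listed at 0 in 1 of the groups. Among these loci 167 were higher and 163 lower, but 257 of the 425 also passed the fold between the wild type groups and 235 between the R6/1 groups. Without short RNA loci, 13461 members remained, of which 423 were higher (3.14%) and 1341 were lower (9.96%). A log2 ratio under -1 was found for 342 of them and a ratio over 1 for 41, and the median of all was -0.01. Under 1 FPKM in 1 of the groups, and therefore members only through the other group, were 521 of the 13461, of which 95 were higher and 248 were lower. The members nearest to the limit were Vwf, with 1.0002 FPKM in its higher group, on the inside, and Rtkn2, with 0.9999 FPKM, on the outside.

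**Figure D1:**
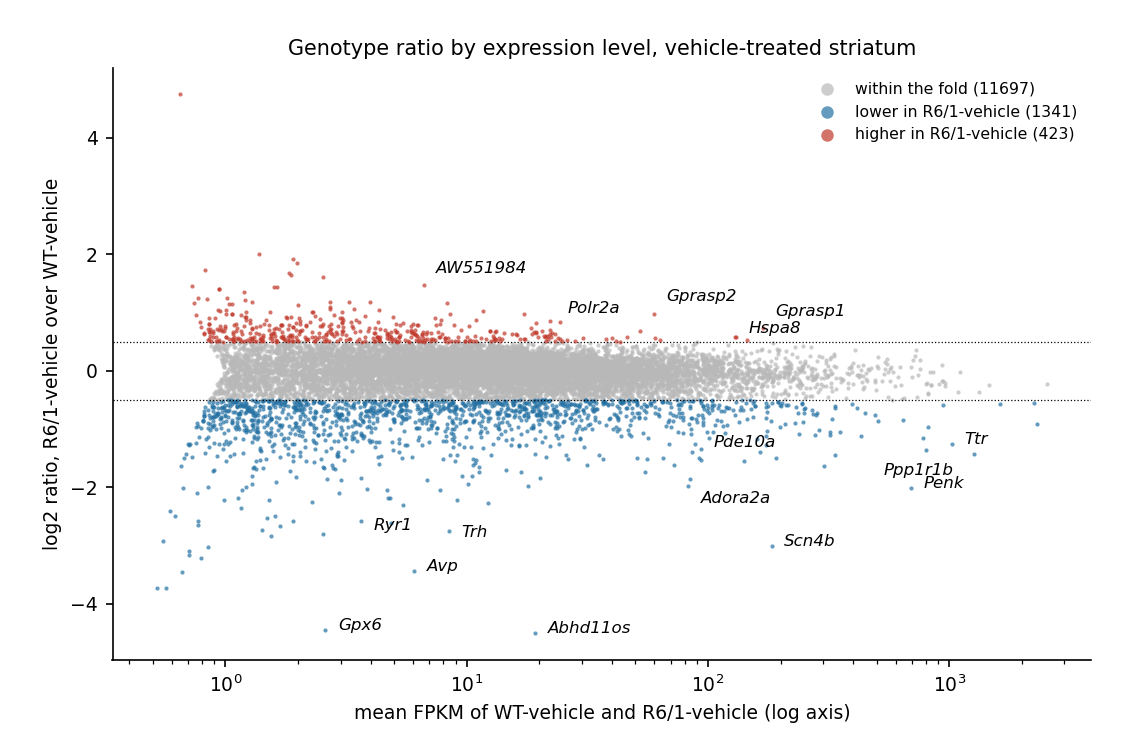
Each point is a member other than a short RNA locus, placed by its mean FPKM in the vehicle groups (log axis) and by its log2 ratio of R6/1-vehicle to WT-vehicle, with dotted lines at the fold. Lower genes (1341, blue) reach to the highest levels, where Penk and Ppp1r1b lie, whereas the higher genes (423, red) lie mostly at low levels. The single point near the top is the noncoding RNA Bc1, listed at 0 in WT-vehicle.

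The direction depended on the level of the gene. Among the 699 members with a mean of at least 100 FPKM, 105 were lower (15.0%) and 4 were higher. Those 4 were Prepl, Tmem130, Gprasp1 and Hspa8, named after their values were seen. Gprasp1, a sorting protein of G protein-coupled receptors, had 127 FPKM in WT-vehicle and 211 FPKM in R6/1-vehicle (log2 ratio 0.73), and the constitutive heat shock protein Hspa8 had 105 FPKM in WT-vehicle and 157 FPKM in R6/1-vehicle (0.59). At a mean of 1 to 3 FPKM, 174 of 2158 members were higher (8.06%) and 363 were lower (16.8%). Low genes also had the widest ratios between groups of the same genotype, with a median absolute log2 ratio between the wild type groups of 0.13 at 1 to 3 FPKM and of 0.05 at 100 FPKM and above.

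Most of these genes had the same direction in the second set of mice. Across the 13461 genes the log2 ratio of genotype in the RGFP109 groups was correlated with that in the vehicle groups (Pearson 0.85, Spearman 0.83), which is a description across genes that are not independent replicates. Of the 1341 lower genes, 895 were also lower in R6/1-RGFP109 against WT-RGFP109 (66.7%) and 1300 had a negative ratio (96.9%). Of the 423 higher genes, 204 were also higher (48.2%) and 401 had a positive ratio (94.8%). In the RGFP109 mice 8.2% of the same members were lower and 2.57% were higher. These are different animals, but drug and animals cannot be told apart there.

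**Figure D2:**
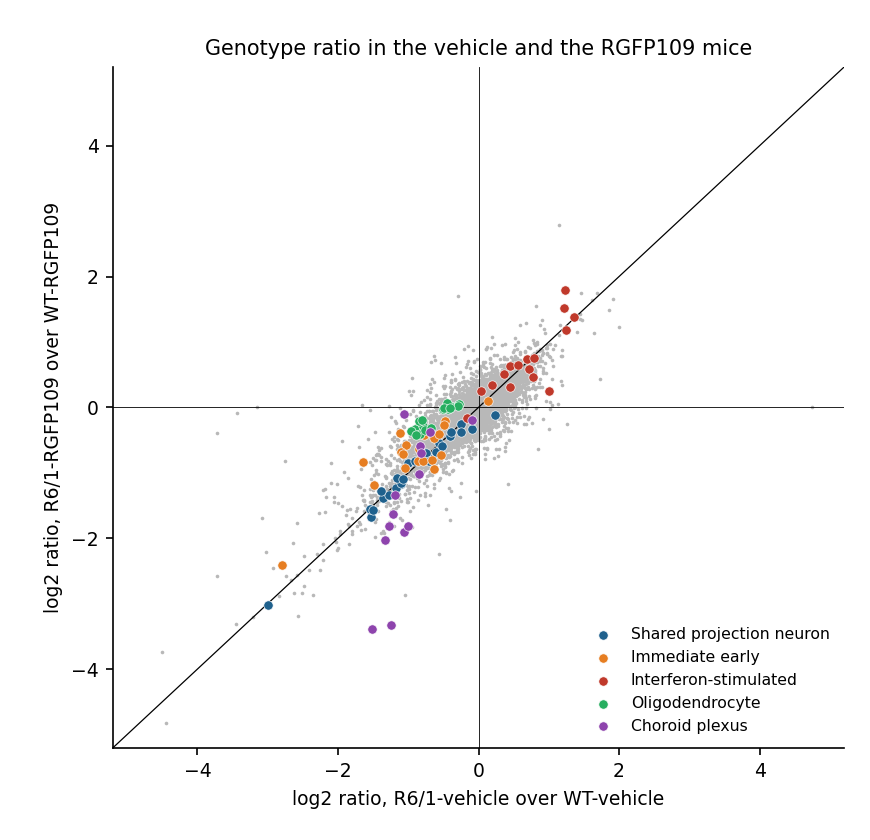
Each point is a member other than a short RNA locus, placed by its log2 ratio of R6/1 to wild type in the vehicle mice (x axis) and in the RGFP109 mice (y axis), with the line of equal ratios and 5 marker lists in color. Projection neuron and interferon-stimulated genes lie near the line, oligodendrocyte genes lie above it and choroid plexus genes mostly below it.

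Genes of the indirect pathway were lower. Of 7 marker genes, 5 were lower and none was higher (median log2 ratio -1.29), against 9.96% of all members lower, and the same count held in the RGFP109 mice (median -1.34). Penk (chr4:4133536-4138445, mm10) had 1114 FPKM in WT-vehicle and 276 FPKM in R6/1-vehicle, a log2 ratio of -2.01. It had 1116 FPKM in WT-RGFP109 and 247 FPKM in R6/1-RGFP109, so that both R6/1 groups lay far below both wild type groups. In bulk tissue, fewer cells of a type and less RNA per cell cannot be told apart. Adora2a, through which adenosine raises cAMP in these neurons, had 132.1 FPKM in WT-vehicle and 33.6 FPKM in R6/1-vehicle (-1.97), and 119 FPKM in WT-RGFP109 and 31.1 FPKM in R6/1-RGFP109. Drd2, the receptor through which dopamine restrains the same neurons, had 97.6 FPKM in WT-vehicle and 41.0 FPKM in R6/1-vehicle (-1.25). Both orphan receptors on the list, which signal constitutively, were lower too. Gpr6 had 54.7 FPKM in WT-vehicle and 19.1 FPKM in R6/1-vehicle (-1.51) and Gpr52 had 31.5 FPKM in WT-vehicle and 12.8 FPKM in R6/1-vehicle (-1.29). Sp9, a transcription factor needed for the formation of indirect-pathway neurons, was an exception at 6.92 FPKM in WT-vehicle and 6.83 FPKM in R6/1-vehicle (-0.02). The kainate receptor subunit Grik3, named after its value was seen, also stayed within the fold at a log2 ratio of -0.33.

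Markers of the direct pathway were less uniform. Of 9 genes, 2 were lower, 1 was higher and 6 lay within the fold (median -0.11), while 4 were lower in the RGFP109 mice (median -0.43). The shares of all members in the vehicle mice were 9.96% lower and 3.14% higher. Over the direct-pathway genes with a mean of at least 5 FPKM the median was -0.40. Drd1 had 56.9 FPKM in WT-vehicle and 28.5 FPKM in R6/1-vehicle (-0.99), and the muscarinic receptor Chrm4, which opposes Drd1 signaling, had 40.9 FPKM in WT-vehicle and 18.1 FPKM in R6/1-vehicle (-1.17). Both were at about this ratio in the RGFP109 mice (-1.21 and -1.15). The substance P precursor Tac1, in contrast, had 214 FPKM in WT-vehicle and 199 FPKM in R6/1-vehicle (-0.11), and 247 FPKM in WT-RGFP109 and 182 FPKM in R6/1-RGFP109 (-0.43). The dynorphin precursor Pdyn had 56.1 FPKM in WT-vehicle and 40.4 FPKM in R6/1-vehicle (-0.47), and passed the fold only among the RGFP109 mice (-0.85); a difference between the sets of mice was not tested. Isl1, a transcription factor that specifies direct-pathway neurons, was higher, with 4.51 FPKM in WT-vehicle and 7.20 FPKM in R6/1-vehicle (0.67), and its ratio in the RGFP109 mice was 0.41. Slc35d3, a transporter that promotes traffic of Drd1 to the cell surface, lay within the fold in the vehicle mice (-0.40).

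Genes that both classes of projection neuron share were lower in large part, against 9.96% lower among all members. Of 26, 20 were lower, none was higher and 6 lay within the fold (median -0.96), and 20 were lower in the RGFP109 mice as well (median -0.83). Their summed level was 5063 FPKM in WT-vehicle, 2367 FPKM in R6/1-vehicle, 4755 FPKM in WT-RGFP109 and 2183 FPKM in R6/1-RGFP109. Scn4b (chr9:45139042-45154061), the sodium channel subunit behind the resurgent current of these cells, was the lowest at 327 FPKM in WT-vehicle and 40.8 FPKM in R6/1-vehicle (-2.999). Ppp1r1b, which encodes the dopamine- and cAMP-regulated phosphoprotein DARPP-32, had 1149 FPKM in WT-vehicle and 447 FPKM in R6/1-vehicle (-1.36). Of the cyclic nucleotide phosphodiesterases, Pde10a had 139 FPKM in WT-vehicle and 48.1 FPKM in R6/1-vehicle (-1.53) and Pde1b had 438 FPKM in WT-vehicle and 204 FPKM in R6/1-vehicle (-1.10). Rgs9, which speeds the inactivation of G proteins downstream of Drd2, had 211 FPKM in WT-vehicle and 72.5 FPKM in R6/1-vehicle (-1.54). Adcy5, the adenylyl cyclase of the striatum, had 221 FPKM in WT-vehicle and 97.6 FPKM in R6/1-vehicle (-1.18). Not every gene of these neurons followed, since the transcription factor Foxp2 had 6.56 FPKM in WT-vehicle and 7.75 FPKM in R6/1-vehicle (0.24). Gnal, the G protein that couples Drd1 and Adora2a to Adcy5, had 129.9 FPKM in WT-vehicle and 122 FPKM in R6/1-vehicle (-0.10), and was named after its value was seen.

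**Figure D3:**
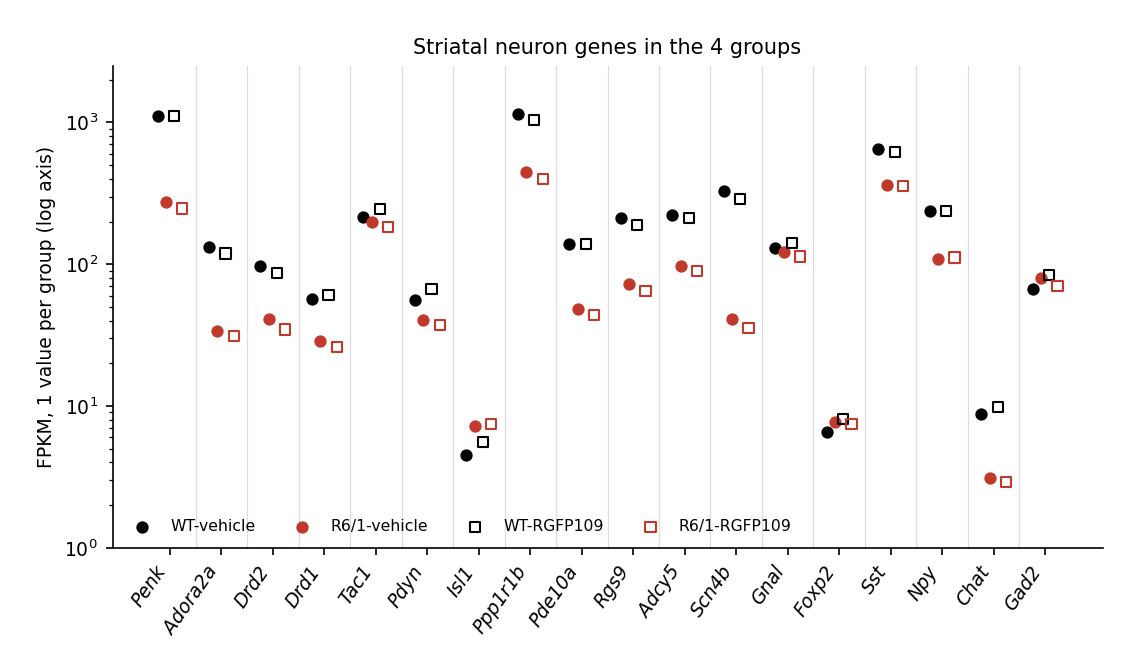
FPKM values of 18 neuronal genes (log axis) in WT-vehicle (black circles), R6/1-vehicle (red circles), WT-RGFP109 (black open squares) and R6/1-RGFP109 (red open squares), with 1 value per group. Both R6/1 values lie below both wild type values for Penk, Ppp1r1b and Scn4b, whereas the 4 values of Foxp2 and of Gad2 lie close together.

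The compartments of the striatum, the striosomes and the matrix, were represented by few genes, whose counts stand beside 9.96% lower among all members. Of 6 striosome genes, 3 were lower (median -0.51), namely the Wnt coreceptor Kremen1 (-0.70), Sh3rf2 (-0.63) and Lypd1 (-0.54). The mu opioid receptor Oprm1, a classic striosome marker, had 1.07 FPKM in WT-vehicle and 1.52 FPKM in R6/1-vehicle (0.49), within the fold. Of 4 matrix genes only Rasgrp2, an exchange factor for Rap1, was lower, at 95.8 FPKM in WT-vehicle and 33.9 FPKM in R6/1-vehicle (-1.50), whereas Calb1, which encodes a calcium-buffering protein, was at 62.3 FPKM in WT-vehicle and 55.4 FPKM in R6/1-vehicle (-0.17).

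Interneuron genes were mostly lower in both genotype comparisons, beside 9.96% of all members lower in the vehicle mice and 8.2% in the RGFP109 mice. Of 6 genes of the cholinergic interneuron, 5 were lower (median -0.99) and all 6 were lower in the RGFP109 mice (median -1.16). The acetylcholine-synthesizing enzyme Chat had 8.78 FPKM in WT-vehicle and 3.13 FPKM in R6/1-vehicle (-1.47) and the choline transporter Slc5a7 had 5.15 FPKM in WT-vehicle and 2.28 FPKM in R6/1-vehicle (-1.16). Lhx8, the factor that sets cholinergic identity, was at 3.32 FPKM in WT-vehicle and 3.20 FPKM in R6/1-vehicle (-0.05), and at 4.55 FPKM in WT-RGFP109 and 2.77 FPKM in R6/1-RGFP109 (-0.71). Of 12 genes of GABAergic interneurons, 8 were lower (median -0.85) and 9 in the RGFP109 mice (median -0.91). The peptide Npy had 238 FPKM in WT-vehicle and 109.6 FPKM in R6/1-vehicle (-1.12), Pvalb, the calcium-binding protein of fast-spiking cells, had 43.7 FPKM in WT-vehicle and 24.2 FPKM in R6/1-vehicle (-0.85), and the nitric oxide synthase Nos1 had 11.4 FPKM in WT-vehicle and 6.11 FPKM in R6/1-vehicle (-0.90). Gad2, an enzyme of GABA synthesis that interneurons and projection neurons share, was not lower, at 67.2 FPKM in WT-vehicle and 79.7 FPKM in R6/1-vehicle (0.25).

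Peptide precursors as a group followed the same direction. Of 19 neuropeptide genes, 13 were lower and 1 was higher (median -0.87), against 9.96% lower and 3.14% higher among all members. The single higher gene was the neurotensin precursor Nts, with 7.17 FPKM in WT-vehicle and 11.7 FPKM in R6/1-vehicle (0.71), but it had 14.5 FPKM in WT-RGFP109 and 12.8 FPKM in R6/1-RGFP109 (-0.18), which is the opposite sign. Cartpt, a peptide linked to psychostimulant response, had 16.3 FPKM in WT-vehicle and 5.59 FPKM in R6/1-vehicle (-1.54). Sst, which is released by interneurons, had 653 FPKM in WT-vehicle and 361 FPKM in R6/1-vehicle (-0.85), and 619.7 FPKM in WT-RGFP109 and 355 FPKM in R6/1-RGFP109 (-0.80). Vip, made by interneurons that are more common in the cortex, had the lowest ratio of the list, with 12.5 FPKM in WT-vehicle and 2.98 FPKM in R6/1-vehicle (-2.05).

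Receptors for the transmitters of the striatum were lower more often than higher, beside 9.96% lower and 3.14% higher among all members. Of 4 dopamine receptors, Drd1, Drd2 and Drd5 (-1.03) were lower. Drd5 was under 1 FPKM in R6/1-vehicle and thus a member only through WT-vehicle. Drd3 had 0.788 FPKM in WT-vehicle and 1.64 FPKM in R6/1-vehicle (1.01), a higher value at a low level that turned in the RGFP109 mice (-0.33). Of 8 opioid, cannabinoid and adenosine receptors, 5 were lower (median -0.89). The cannabinoid receptor Cnr1 had 43.8 FPKM in WT-vehicle and 17.6 FPKM in R6/1-vehicle (-1.31), the kappa opioid receptor Oprk1 had 6.88 FPKM in WT-vehicle and 2.91 FPKM in R6/1-vehicle (-1.23), and the delta opioid receptor Oprd1 had 5.68 FPKM in WT-vehicle and 2.43 FPKM in R6/1-vehicle (-1.21). Among 10 serotonin receptors 4 were lower and 1 was higher. The higher one was Htr2c, with 17.5 FPKM in WT-vehicle and 27.4 FPKM in R6/1-vehicle (0.65), whereas Htr2a had 4.72 FPKM in WT-vehicle and 2.10 FPKM in R6/1-vehicle (-1.15). In the RGFP109 mice none of the 10 serotonin receptors was higher, Htr2c included, and 7 were lower. Of 7 adrenergic receptors 4 were lower, among them Adra1d (-1.43), and of 7 muscarinic and nicotinic receptors 3 were lower, Chrm4 with the lowest ratio of them. The alpha4 nicotinic subunit Chrna4 had 8.27 FPKM in WT-vehicle and 4.18 FPKM in R6/1-vehicle (-0.98), and its ratio in the RGFP109 mice was -0.32.

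Of 17 ionotropic glutamate receptor subunits 2 were lower (11.8%) and none was higher, a share near the 9.96% of all members lower, and the AMPA receptor subunits Gria1 (0.05) and Gria2 (0.16) lay close to 0. The NMDA receptor subunit Grin2c, which is mainly an astrocyte gene in the forebrain, had 18.0 FPKM in WT-vehicle and 10.2 FPKM in R6/1-vehicle (-0.81), and Grin3a, another NMDA subunit, had 6.38 FPKM in WT-vehicle and 7.59 FPKM in R6/1-vehicle (0.25). Of 13 GABA-A receptor subunits only Gabrd, the subunit of extrasynaptic receptors, was lower, at 83.0 FPKM in WT-vehicle and 29.0 FPKM in R6/1-vehicle (-1.51), and its ratio in the RGFP109 mice was -1.45. Of 7 metabotropic glutamate receptors 3 were lower, namely Grm2 (-1.23), Grm3 (-0.70) and Grm4 (-0.72), whereas Grm5, which is abundant in projection neurons, had 29.0 FPKM in WT-vehicle and 24.8 FPKM in R6/1-vehicle (-0.22).

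Genes of the signaling chains downstream of these receptors were lower in part, beside 9.96% lower among all members. Of 19 genes of cAMP and protein kinase A signaling 4 were lower (median -0.02). The catalytic subunit Prkaca had 92.5 FPKM in WT-vehicle and 94.6 FPKM in R6/1-vehicle (0.03) and Prkacb had 142 FPKM in WT-vehicle and 179 FPKM in R6/1-vehicle (0.33), next to the values of Adcy5 and Ppp1r1b given above. Of 14 phosphodiesterases 4 were lower, and Pde1a, at 30.4 FPKM in WT-vehicle and 32.6 FPKM in R6/1-vehicle (0.10), was within the fold. Of 16 regulators of G protein signaling 6 were lower (median -0.40). Rgs11 had the lowest ratio of these, with 25.8 FPKM in WT-vehicle and 7.72 FPKM in R6/1-vehicle (-1.73), Rgs14 had 51.9 FPKM in WT-vehicle and 19.0 FPKM in R6/1-vehicle (-1.45) and Rgs4 had 237 FPKM in WT-vehicle and 90.8 FPKM in R6/1-vehicle (-1.39). Of 16 calmodulin and calmodulin kinase genes 9 were lower (median -0.67). The calmodulin regulator Pcp4, among the most abundant genes of the striatum, had 1848 FPKM in WT-vehicle and 689 FPKM in R6/1-vehicle (-1.42). The kinase subunit Camk2a had 617 FPKM in WT-vehicle and 367 FPKM in R6/1-vehicle (-0.75), while the subunit Camk2g was at 58.4 FPKM in WT-vehicle and 55.2 FPKM in R6/1-vehicle (-0.08).

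Ion channel genes were lower in part. Of 67 potassium channel genes 20 were lower and none was higher (median -0.31), against 9.96% lower among all members, with 19 lower in the RGFP109 mice. Their lowest member was Kcnh4, a channel gene of the Elk family that is expressed in striatum, with 14.8 FPKM in WT-vehicle and 4.22 FPKM in R6/1-vehicle (-1.80), and their highest was Kcna3 (0.44). Of 33 genes of calcium channels, stores and pumps 9 were lower (median -0.22). Ryr1, the calcium release channel best known from skeletal muscle, had 6.29 FPKM in WT-vehicle and 1.01 FPKM in R6/1-vehicle (-2.58), and 5.82 FPKM in WT-RGFP109 and 0.940 FPKM in R6/1-RGFP109 (-2.57). Of 9 sodium channel genes Scn4b was lower and Scn9a was higher, the latter at 0.835 FPKM in WT-vehicle and 2.35 FPKM in R6/1-vehicle (1.44) and at a ratio of 1.35 in the RGFP109 mice. Scn9a was thus a member only through R6/1-vehicle.

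Activity-dependent genes were mostly lower under vehicle, against 9.96% lower among all members. Immediate early genes are transcribed within minutes of synaptic activity, largely through the factors CREB and SRF, and of 21 such genes 18 were lower and none was higher (median -0.84). In the RGFP109 mice 13 were lower (median -0.68). Arc, which encodes a postsynaptic protein for receptor uptake, had 75.1 FPKM in WT-vehicle and 26.7 FPKM in R6/1-vehicle (-1.49), and 58.3 FPKM in WT-RGFP109 and 25.7 FPKM in R6/1-RGFP109 (-1.18). Npas4, a factor induced by calcium influx, had 17.1 FPKM in WT-vehicle and 5.43 FPKM in R6/1-vehicle (-1.65), and Egr1, a zinc finger factor, had 92.6 FPKM in WT-vehicle and 50.8 FPKM in R6/1-vehicle (-0.87). The lowest ratio was that of Egr2, at 4.47 FPKM in WT-vehicle and 0.599 FPKM in R6/1-vehicle (-2.80) and 3.52 FPKM in WT-RGFP109 and 0.623 FPKM in R6/1-RGFP109 (-2.41). Nr4a1, an orphan nuclear receptor, had 38.3 FPKM in WT-vehicle and 18.6 FPKM in R6/1-vehicle (-1.04), and Nr4a2 of the same family had 11.3 FPKM in WT-vehicle and 5.17 FPKM in R6/1-vehicle (-1.11), with 11.97 FPKM in WT-RGFP109 and 9.07 FPKM in R6/1-RGFP109 (-0.40). Fos itself was within the fold at 13.01 FPKM in WT-vehicle and 9.35 FPKM in R6/1-vehicle (-0.47), and so were Fosb, at 3.80 FPKM in WT-vehicle and 4.19 FPKM in R6/1-vehicle (0.14), and Jun (-0.50), the latter named as the remaining member within it. Feedback regulators of the ERK pathway showed 4 lower of 12, among them Dusp6, a phosphatase for ERK, at 17.8 FPKM in WT-vehicle and 9.51 FPKM in R6/1-vehicle (-0.90). Many of these genes are also active in neocortex, whose markers were lower as described below, and the part of that tissue in these values was not tested.

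CREB binds the cAMP response element TGACGTCA, which was searched on both strands of the 300 bases around each RefSeq start (250 before and 50 after it) for the 10254 members other than short RNA loci that have such an entry. It was found in 25 of 1301 promoters of lower genes (1.92%), 13 of 368 of higher genes (3.53%) and 397 of all 13219 (3.00%). Among peptide genes 3 of 16 promoters held it, those of Sst, Cartpt and Scg2, and among immediate early genes 2 of 27, those of Btg2 and Dusp1. These 5 were named after the search. Among them Scg2, a granin at 168 FPKM in WT-vehicle and 179.9 FPKM in R6/1-vehicle (0.10), lay within the fold and the other 4 were lower. The promoters of Sst (chr16:23890845-23891094, minus strand) and Cartpt (chr13:99900684-99900933, minus strand) are printed from RefSeq, build GRCm38.p6, as the 250 bases before the start, 5′ to 3′, to show where the element lies in 2 lower peptide genes. Capitals mark the element, which begins 48 bases before the start in Sst and 112 bases before it in Cartpt.
Sst: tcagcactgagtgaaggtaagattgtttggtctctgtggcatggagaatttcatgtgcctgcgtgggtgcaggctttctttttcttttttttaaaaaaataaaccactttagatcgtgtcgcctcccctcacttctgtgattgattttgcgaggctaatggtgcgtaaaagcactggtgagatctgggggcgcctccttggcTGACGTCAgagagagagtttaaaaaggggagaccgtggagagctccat
Cartpt: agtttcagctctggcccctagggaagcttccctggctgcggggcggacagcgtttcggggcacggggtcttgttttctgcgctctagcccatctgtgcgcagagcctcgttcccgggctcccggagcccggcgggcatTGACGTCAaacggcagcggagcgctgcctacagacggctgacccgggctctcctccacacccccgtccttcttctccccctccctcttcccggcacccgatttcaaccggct

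Of 17 postsynaptic scaffold genes 6 were lower (35.3%) and none was higher (median -0.38), against 9.96% of all members lower. Shank3, a master scaffold of excitatory synapses, had 54.2 FPKM in WT-vehicle and 27.003 FPKM in R6/1-vehicle (-1.003), its partner Dlgap3 had 157 FPKM in WT-vehicle and 82.4 FPKM in R6/1-vehicle (-0.93), and Dlg4, which encodes PSD-95, had 306 FPKM in WT-vehicle and 197 FPKM in R6/1-vehicle (-0.64). Shank2 was at 18.8 FPKM in WT-vehicle and 19.9 FPKM in R6/1-vehicle (0.08). Of 22 synaptic vesicle genes 3 were lower (13.6%, median -0.10), near the share of all members, and synaptophysin, Syp, had 511 FPKM in WT-vehicle and 591 FPKM in R6/1-vehicle (0.21). The complexin Cplx2 was the lowest of them, at 411 FPKM in WT-vehicle and 264 FPKM in R6/1-vehicle (-0.64). Of 64 axon guidance genes 11 were lower (17.2%) and 4 were higher (6.25%), against 9.96% and 3.14% of all members, and the median was -0.08. The lowest was the receptor Robo3, at 4.81 FPKM in WT-vehicle and 1.09 FPKM in R6/1-vehicle (-2.09). The highest was the ephrin receptor Epha3, at 0.702 FPKM in WT-vehicle and 1.42 FPKM in R6/1-vehicle (0.97), and thus a member only through R6/1-vehicle. In the RGFP109 mice none of the 64 was higher.

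Of 7 neurotrophin genes 3 were lower, beside 9.96% of all members. Bdnf, which reaches the striatum mostly as protein from the cortex, had 2.64 FPKM in WT-vehicle and 1.76 FPKM in R6/1-vehicle (-0.57), and its receptor Ntrk2 had 98.4 FPKM in WT-vehicle and 82.9 FPKM in R6/1-vehicle (-0.25). The endogenous mouse gene Htt had 16.9 FPKM in WT-vehicle and 19.1 FPKM in R6/1-vehicle (0.17), and none of 9 genes of huntingtin and its partners passed the fold. Transcripts of the human transgene have no entry in this mouse annotation, so these values are no check of the genotype labels.

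Glial genes differed by class, beside 9.96% lower and 3.14% higher among all members. Of 19 oligodendrocyte genes 10 were lower and none was higher in the vehicle mice (median -0.51), but in the RGFP109 mice none passed the fold (median -0.03). The WT-RGFP109 group lay below WT-vehicle for these genes (median -0.35), so the groups of 1 genotype were themselves apart by more than the median absolute ratio of 0.07 over all members. The myelin gene Mbp, with 3028 FPKM in WT-vehicle and 1611 FPKM in R6/1-vehicle (-0.91; -0.33 in the RGFP109 mice), was negative in both sets. Of 20 astrocyte genes 6 were lower (median -0.36) and 5 in the RGFP109 mice (median -0.42). The glutamate transporter Slc1a2, which clears transmitter from the synapse, had 293 FPKM in WT-vehicle and 177 FPKM in R6/1-vehicle (-0.73), and Gfap, the filament gene of reactive astrocytes, had 55.2 FPKM in WT-vehicle and 46.3 FPKM in R6/1-vehicle (-0.26). None of 20 microglia genes passed the fold (median -0.24). Among them Cx3cr1, the fractalkine receptor, had 20.2 FPKM in WT-vehicle and 15.9 FPKM in R6/1-vehicle (-0.35) and the complement gene C1qa had 75.2 FPKM in WT-vehicle and 64.0 FPKM in R6/1-vehicle (-0.23). Of 14 endothelial genes only the tight junction gene Cldn5 (-0.68) was lower, and of 8 genes of pericytes and smooth muscle only Kcnj8 (-0.53).

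Markers of tissue that borders the striatum differed by region, beside 9.96% lower and 3.14% higher among all members. Of 13 neocortex genes 10 were lower (median -0.69), with a summed level of 535 FPKM in WT-vehicle, 309 FPKM in R6/1-vehicle, 506 FPKM in WT-RGFP109 and 360.1 FPKM in R6/1-RGFP109, and only 3 were lower in the RGFP109 mice (median -0.22). The vesicular glutamate transporter Slc17a7 had 297 FPKM in WT-vehicle and 161 FPKM in R6/1-vehicle (-0.89), and the cortical factor Neurod6 had 13.7 FPKM in WT-vehicle and 8.14 FPKM in R6/1-vehicle (-0.75; -0.16 in the RGFP109 mice). Of 14 choroid plexus genes 13 were lower (median -1.06), with summed levels of 1511 FPKM in WT-vehicle, 643 FPKM in R6/1-vehicle, 329.9 FPKM in WT-RGFP109 and 43.6 FPKM in R6/1-RGFP109. All 14 also passed the fold between the wild type groups and between the R6/1 groups. Transthyretin, Ttr, had 1443 FPKM in WT-vehicle and 606 FPKM in R6/1-vehicle (-1.25), and 306 FPKM in WT-RGFP109 and 30.5 FPKM in R6/1-RGFP109. Of the hypothalamic peptides, Avp had 11.1 FPKM in WT-vehicle and 0.983 FPKM in R6/1-vehicle (-3.43) but 9.73 FPKM in WT-RGFP109 and 9.11 FPKM in R6/1-RGFP109 (-0.09), and Trh had 14.7 FPKM in WT-vehicle and 2.15 FPKM in R6/1-vehicle (-2.75). Another member, the precursor Pomc (-0.68), was lower too, and the remaining 6 hypothalamic genes listed were under 1 FPKM. No member of these 3 lists was listed at 0 in any of the 4 groups. Of the meninges list 2 of 8 members were lower and 2 were higher (median 0.21), of 8 ependyma genes 1 was lower and 1 higher, and of 5 thalamus genes 1 passed each way. Among 5 genes of pallidum and septum 1 was lower (median -0.07), and of 2 olfactory bulb genes 1 was lower. Choroid plexus genes and Avp did not follow the genotype across the 4 groups, since the choroid plexus sum of WT-RGFP109 lay below that of R6/1-vehicle and Avp in R6/1-RGFP109 lay near both wild type values. The part of these regional markers in the values of other genes, the peptide and immediate early genes included, was not tested.

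**Figure D4:**
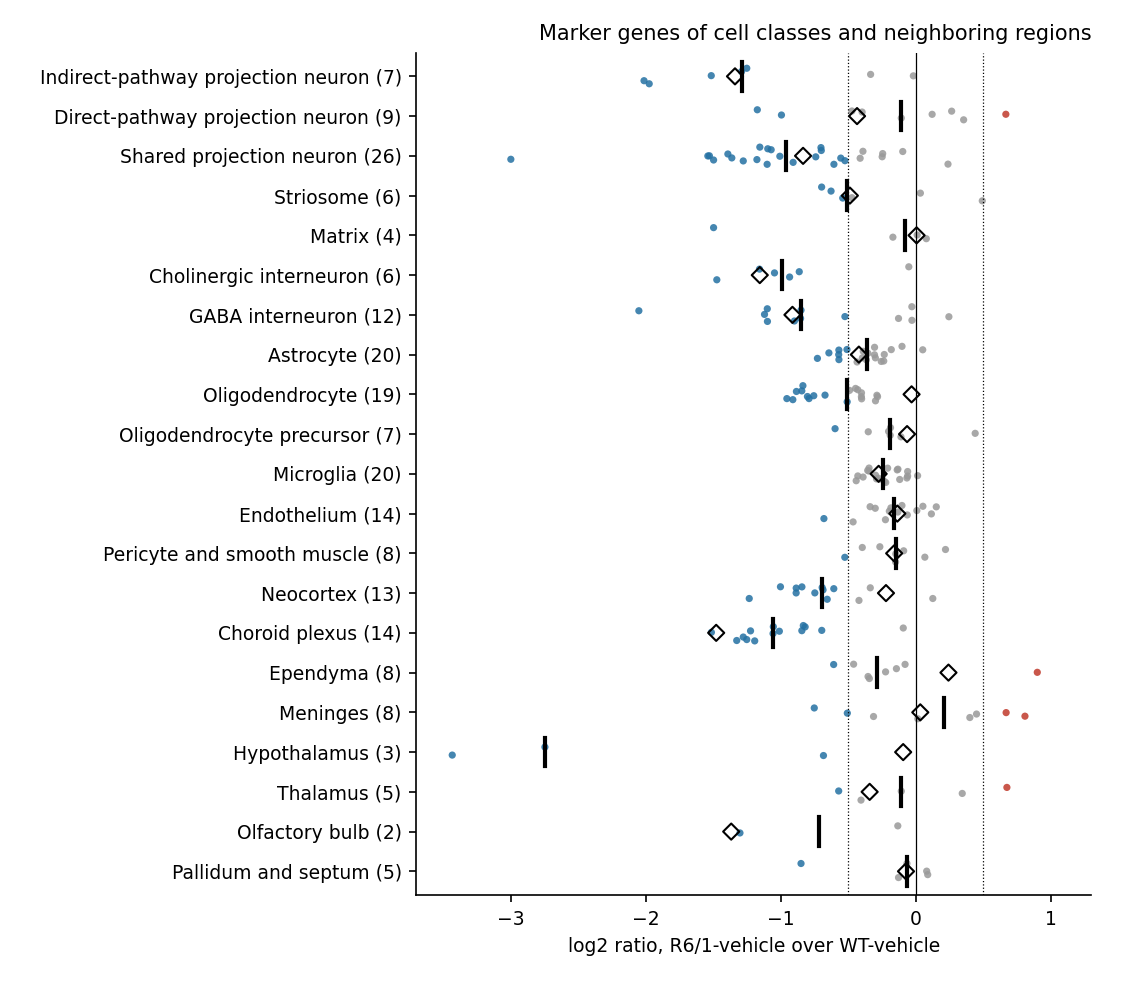
Log2 ratio of R6/1-vehicle to WT-vehicle for the marker genes (points) of 21 cell classes and regions, with the number of members in parentheses, the median as a black bar and the median in the RGFP109 mice as a diamond. Blue and red points lie beyond the dotted lines at the fold. Bar and diamond lie close together for the shared projection neuron genes (-0.96 and -0.83) and far apart for the oligodendrocyte genes (-0.51 and -0.03).

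The 15 members with the lowest ratio and a mean of at least 5 FPKM, short RNA loci left out, held several genes of these classes (Scn4b, Penk, Adora2a, Avp, Trh, Vip). The lowest was the noncoding RNA Abhd11os (chr5:135009152-135013157), a striatum-enriched transcript, with 36.96 FPKM in WT-vehicle and 1.58 FPKM in R6/1-vehicle (-4.50) and 28.7 FPKM in WT-RGFP109 and 2.11 FPKM in R6/1-RGFP109 (-3.73). The table gives it 1 locus together with Abhd11 of the other strand, which had 33.6 FPKM in WT-vehicle and 27.8 FPKM in R6/1-vehicle (-0.27), and as the counting is not stated to use strand, reads of the overlap cannot be told apart. Ddit4l, an inhibitor of mTOR signaling, had 9.09 FPKM in WT-vehicle and 1.80 FPKM in R6/1-vehicle (-2.30), and Myl4, the atrial myosin light chain, had 15.0 FPKM in WT-vehicle and 3.18 FPKM in R6/1-vehicle (-2.22). Cd4, which is expressed by neurons in mouse brain as well as by T cells, had 28.6 FPKM in WT-vehicle and 7.23 FPKM in R6/1-vehicle (-1.98; -1.89 in the RGFP109 mice). Cort, a cortical relative of somatostatin, had 16.1 FPKM in WT-vehicle and 4.14 FPKM in R6/1-vehicle (-1.95), but its ratio in the RGFP109 mice was -0.51. The remaining genes were Acvrl1 (-1.88), Lrrc10b (-1.86), Hipk4 (-1.84) and E130012A19Rik (-2.27). At a lower level, Gpx6, a glutathione peroxidase, had 5.02 FPKM in WT-vehicle and 0.182 FPKM in R6/1-vehicle (-4.45) and 4.92 FPKM in WT-RGFP109 and 0.126 FPKM in R6/1-RGFP109. Its vehicle ratio was the lowest in its list of 21 genes of oxidative stress and glutathione. Of these 3 were lower (14.3%), against 9.96% of all members. All 3 were under 1 FPKM in R6/1-vehicle and members only through WT-vehicle. Among the 18 with at least 1 FPKM in both groups none was lower. With short RNA loci included, all 30 genes at the ends of the order were such loci, and 28 of them were listed at 0 in a group.

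On the higher side, ratios were smaller. The highest member by the same rule was AW551984, with 3.50 FPKM in WT-vehicle and 9.77 FPKM in R6/1-vehicle (1.47) and 3.80 FPKM in WT-RGFP109 and 9.69 FPKM in R6/1-RGFP109 (1.34). Nfya, a subunit of the CCAAT-binding factor, had 7.71 FPKM in WT-vehicle and 15.7 FPKM in R6/1-vehicle (1.02; 0.97 in the RGFP109 mice). Polr2a (chr11:69733999-69758633), the catalytic subunit of RNA polymerase II, had 15.8 FPKM in WT-vehicle and 28.7 FPKM in R6/1-vehicle (0.86) and 15.1 FPKM in WT-RGFP109 and 27.6 FPKM in R6/1-RGFP109 (0.87), and the other 12 subunits of the polymerase lay within the fold. The myosin light chain Myl6b had 11.6 FPKM in WT-vehicle and 22.9 FPKM in R6/1-vehicle (0.97), and Tnnt2, the cardiac troponin T, had 5.50 FPKM in WT-vehicle and 10.1 FPKM in R6/1-vehicle (0.88). Asl, the urea cycle enzyme argininosuccinate lyase, had 14.0 FPKM in WT-vehicle and 24.9 FPKM in R6/1-vehicle (0.83), and Ece2, a protease that processes peptides, had 17.4 FPKM in WT-vehicle and 31.3 FPKM in R6/1-vehicle (0.85). Slc1a6, a glutamate transporter known from Purkinje cells, had 4.35 FPKM in WT-vehicle and 7.66 FPKM in R6/1-vehicle (0.81). Fstl5 (0.82) and Cyp4x1 (0.81) followed. The remaining 5 of the 15, Tmsb15b1 (1.17), Gprasp2 (0.98), Trmt2b (0.97), Zmat1 (0.91) and Rab9b (0.87), lie on 1 stretch of the X chromosome. In the RGFP109 mice Tmsb15b1 (0.40), Zmat1 (0.31) and Fstl5 (0.19) lay within the fold, and the others of the 15 were higher. Between WT-RGFP109 and WT-vehicle the log2 ratio was 0.68 for Tmsb15b1 and 0.51 for Fstl5, both higher in WT-RGFP109.

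Interferon-stimulated genes were higher together. Interferons switch on genes of antiviral defense, in part through Stat2 and Irf9, and of 16 such members 10 were higher and none was lower (median 0.70), against 3.14% of all members higher. In the RGFP109 mice the count was again 10 (median 0.61). The median was 0.45 over the members with at least 1 FPKM in both groups and 0.40 over those with a mean of at least 5 FPKM. Levels were low for most of them, and another 4 listed genes (Oas1a, Rsad2, Mx1 and Ifih1) stayed under 1 FPKM. Irf7, a master regulator of the response, had 0.652 FPKM in WT-vehicle and 1.74 FPKM in R6/1-vehicle (1.35) and 0.723 FPKM in WT-RGFP109 and 1.95 FPKM in R6/1-RGFP109 (1.37). Ifit1, which binds foreign RNA, had 0.581 FPKM in WT-vehicle and 1.45 FPKM in R6/1-vehicle (1.25) and 0.805 FPKM in WT-RGFP109 and 1.88 FPKM in R6/1-RGFP109 (1.18). The ubiquitin-like modifier Isg15 had 1.52 FPKM in WT-vehicle and 3.09 FPKM in R6/1-vehicle (1.00), but its ratio in the RGFP109 mice was 0.25. Stat2, a transcription factor of the pathway, had the lowest ratio of the list, with 8.27 FPKM in WT-vehicle and 7.38 FPKM in R6/1-vehicle (-0.16). Of the 10 higher genes, Ifit1, Irf7, Usp18, Oasl2 and Ddx58 were under 1 FPKM in WT-vehicle and thus members only through R6/1-vehicle; the last 3 are named for this count only. Of 11 genes of complement and inflammation 1 was higher and 2 were lower, beside 3.14% and 9.96% of all members. In the RGFP109 mice 1 of the 11 was higher and 3 were lower. With at least 1 FPKM in both vehicle groups, 1 of 10 was higher and 1 lower. The higher gene under vehicle was the class I gene H2-D1, with 17.0 FPKM in WT-vehicle and 25.7 FPKM in R6/1-vehicle (0.59). Its reads can be shared with near-identical class I genes. Socs3, a brake on cytokine signaling, was lower at 1.24 FPKM in WT-vehicle and 0.597 FPKM in R6/1-vehicle (-0.99).

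The interferon response element, taken here as a pair of GAAA separated by 2 bases, was searched in the same promoters on both strands, a choice made after these values had been seen. It was present in 9 of 16 promoters of interferon-stimulated genes (56.3%), 357 of all 13219 (2.70%), 18 of 368 of higher genes (4.89%) and 38 of 1301 of lower genes (2.92%). The 16 promoters are those of list members regardless of their ratio, so their share describes the list and does not bear on the genotype difference. The 250 bases before the start are printed for 3 of the higher genes, from RefSeq build GRCm38.p6, 5′ to 3′, with each match in capitals, so that the element can be read beside the values above. They are Ifit1 (chr19:34640639-34640888, plus strand, 2 matches), Isg15 (chr4:156200819-156201068, minus strand, 3 overlapping matches) and Gbp3 (chr3:142559794-142560043, plus strand, 2 overlapping matches), the last a guanylate-binding GTPase with 1.23 FPKM in WT-vehicle and 2.15 FPKM in R6/1-vehicle (0.78) that was named after its value was seen.
Ifit1: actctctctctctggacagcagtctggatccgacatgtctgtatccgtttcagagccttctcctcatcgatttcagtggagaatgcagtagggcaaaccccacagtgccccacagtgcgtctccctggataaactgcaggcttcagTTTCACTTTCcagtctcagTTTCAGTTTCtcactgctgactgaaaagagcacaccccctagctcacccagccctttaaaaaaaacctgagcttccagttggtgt
Isg15: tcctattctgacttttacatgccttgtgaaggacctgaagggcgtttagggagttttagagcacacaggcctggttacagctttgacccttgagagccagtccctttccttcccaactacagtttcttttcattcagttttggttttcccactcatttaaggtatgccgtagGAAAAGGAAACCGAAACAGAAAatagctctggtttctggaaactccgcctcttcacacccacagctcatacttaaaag
Gbp3: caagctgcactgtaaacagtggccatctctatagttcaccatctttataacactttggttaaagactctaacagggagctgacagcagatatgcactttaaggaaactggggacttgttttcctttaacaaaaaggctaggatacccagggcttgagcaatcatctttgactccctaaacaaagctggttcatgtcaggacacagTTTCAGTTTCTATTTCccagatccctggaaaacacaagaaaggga

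Clustered protocadherins were higher in part. These adhesion genes lie in neighboring alpha, beta and gamma clusters and give each neuron its own surface identity through the choice among alternative promoters. Of 53 members 18 were higher (34%) and 1 was lower (median 0.38), with 13 higher in the RGFP109 mice (median 0.31). The shares of all members were 3.14% higher and 9.96% lower. Of the 18, 5 were under 1 FPKM in WT-vehicle, and the lower gene was under 1 FPKM in R6/1-vehicle. Among the 47 with at least 1 FPKM in both groups 13 were higher and none was lower (median 0.36). Of the beta genes, each a single exon of its own, 12 of 21 were higher and none was lower (median 0.67), and 10 were higher in the RGFP109 mice (median 0.50). Of these 12, 3 were under 1 FPKM in WT-vehicle and members only through R6/1-vehicle, and among the 18 beta genes with at least 1 FPKM in both groups 9 were higher (median 0.56). Over the protocadherins with a mean of at least 5 FPKM the median was 0.11. Pcdhb2 had the highest ratio, with 0.493 FPKM in WT-vehicle and 1.38 FPKM in R6/1-vehicle (1.40) and 0.458 FPKM in WT-RGFP109 and 1.08 FPKM in R6/1-RGFP109 (1.16). Of 10 alpha genes 4 were higher and 1 was lower, Pcdhac1 at 1.37 FPKM in WT-vehicle and 0.869 FPKM in R6/1-vehicle (-0.62), and of 22 gamma genes 2 were higher. Alpha and gamma genes share constant exons within their cluster, so the split of reads among them is uncertain.

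**Figure D5:**
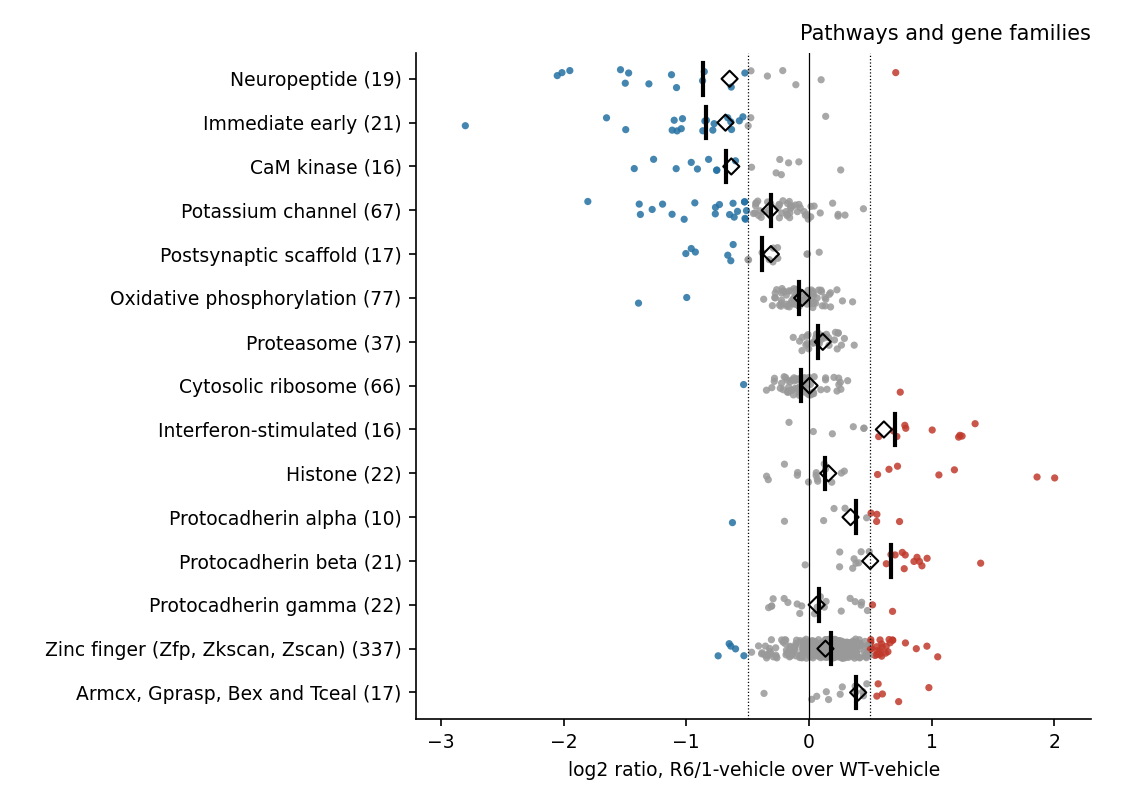
Log2 ratio of R6/1-vehicle to WT-vehicle for the members (points) of 15 pathways and gene families, with the number of members in parentheses, the median as a black bar and the median in the RGFP109 mice as a diamond. Immediate early genes lie mostly beyond the lower dotted line, interferon-stimulated and protocadherin beta genes mostly beyond the upper one, and proteasome genes within both. The last pair of families was chosen after the values were seen.

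Chromatin genes, to which the targets of RGFP109 belong, differed by list. Over the 4 lists of deacetylases, acetyltransferases, polycomb and histone genes 9 of 69 members were higher (13%) and none was lower. The share of all members higher was 3.14%, and the 9 were histone and polycomb genes. Of the 9, 4 were under 1 FPKM in WT-vehicle and members only through R6/1-vehicle. With at least 1 FPKM in both groups, 5 of 64 were higher, beside 328 of 12940 of all members. None of 18 histone deacetylases and corepressor partners passed the fold (median 0.06). Hdac1 had 3.51 FPKM in WT-vehicle and 4.18 FPKM in R6/1-vehicle (0.25) and Hdac3 had 58.5 FPKM in WT-vehicle and 59.2 FPKM in R6/1-vehicle (0.02), the enzymes that the drug inhibits. None of 12 acetyltransferases and bromodomain genes passed it either (median 0.12), although Crebbp, the CREB-binding acetyltransferase, had 7.55 FPKM in WT-vehicle and 10.6 FPKM in R6/1-vehicle (0.48) and Ep300 had 9.44 FPKM in WT-vehicle and 13.1 FPKM in R6/1-vehicle (0.47), both just within it. Of 17 polycomb genes 2 were higher and none was lower (median 0.08), and the methyltransferase Ezh2 had 3.47 FPKM in WT-vehicle and 2.87 FPKM in R6/1-vehicle (-0.27). Of 22 histone members 7 were higher and none was lower (median 0.13), and 4 of the 7 were members only through R6/1-vehicle. Hist2h4 had the highest ratio of these, at 0.519 FPKM in WT-vehicle and 2.23 FPKM in R6/1-vehicle (2.00). Many histone genes are near-identical copies whose reads can be split between them, so these values are uncertain. Of 11 homeobox and developmental factors above the limit 1 was higher, Onecut2 at 1.33 FPKM in WT-vehicle and 2.33 FPKM in R6/1-vehicle (0.79).

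Most housekeeping and stress lists were largely level, beside 9.96% lower and 3.14% higher among all members. Of 37 proteasome genes none passed the fold (median 0.08), and of 66 cytosolic ribosomal protein genes Rpl26 was higher (0.74) and Rpl11 lower (-0.53; median of all -0.06). Rpl11 was under 1 FPKM in R6/1-vehicle and a member only through WT-vehicle. None of the 64 with at least 1 FPKM in both groups was lower. Of 77 genes of oxidative phosphorylation 2 were lower (median -0.08), both of them muscle-type isoforms of cytochrome oxidase, of which Cox8b had the lower ratio with 7.60 FPKM in WT-vehicle and 2.87 FPKM in R6/1-vehicle (-1.39). Of 15 glycolysis genes only Aldoc, an astrocyte isoform of aldolase, was lower (-0.57). Of 24 chaperones Hspa8 was higher, as given above, and Cryab was lower, at 170.1 FPKM in WT-vehicle and 116 FPKM in R6/1-vehicle (-0.55). Of 13 genes of the unfolded protein response only Trib3 was lower, at 1.25 FPKM in WT-vehicle and 0.472 FPKM in R6/1-vehicle (-1.31). It was thus a member only through WT-vehicle, and none of the 12 with at least 1 FPKM in both groups was lower. Atf4 had 100.3 FPKM in WT-vehicle and 95.3 FPKM in R6/1-vehicle (-0.07). Of 11 p53 targets 2 were lower (18.2%). They were the cell cycle inhibitor Cdkn1a, at 11.0 FPKM in WT-vehicle and 5.602 FPKM in R6/1-vehicle (-0.97), and the cell death gene Bbc3 (-0.67). Cholesterol genes were an exception, since 5 of 21 genes of synthesis and uptake were lower (23.8%) and none was higher (median -0.33). In the RGFP109 mice 4 of them were lower (median -0.32).

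Other genes that the study names in its RNA-seq results were Nxph3, a neurexophilin with 16.3 FPKM in WT-vehicle and 5.42 FPKM in R6/1-vehicle (-1.58; -0.48 in the RGFP109 mice), Arhgap15 (-0.54; -0.07) and Gsto2 (-0.95; -0.63), all lower under vehicle. Dpysl2, a protein of axon growth, had 43.9 FPKM in WT-vehicle and 46.0 FPKM in R6/1-vehicle (0.07), the tryptophanyl-tRNA synthetase Wars had 42.1 FPKM in WT-vehicle and 46.6 FPKM in R6/1-vehicle (0.15), and the copine Cpne5 had 64.3 FPKM in WT-vehicle and 51.6 FPKM in R6/1-vehicle (-0.32). These last 3 lay within the fold.

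Features of the loci themselves differed modestly between the directions. Among the 1452 members whose locus in the table spans under 5 kb, 225 were lower (15.5%) and 61 were higher (4.20%), and among the 1074 with at least 200 kb, 94 were lower (8.75%) and 59 were higher (5.49%). The median log2 ratio of the loci under 5 kb was -0.08 in the vehicle mice and -0.003 in the RGFP109 mice. Between WT-RGFP109 and WT-vehicle it was -0.06, so the wild type groups were themselves apart for these loci. A locus in these tables can take in overlapping genes, so its span is not always that of the gene. The GC box GGGCGG was held by 54.6% of promoters of lower genes, 51.6% of higher genes and 61.7% of all, and the TATA box TATAAA by 8.92%, 9.78% and 7.12%. Of 12904 protein-coding members 381 were higher (2.95%) and 1266 were lower (9.81%), near the 3.14% and 9.96% of all members. Of 467 long noncoding RNAs 36 were higher (7.71%) and 58 were lower (12.4%). Under 1 FPKM in 1 of the groups were 13 of these 36 and 18 of these 58.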

How the data were processed

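Striatal RNA was sequenced from 24 libraries (TruSeq RNA kit, single-end reads, in pools that each held all 4 groups), 11 of them from vehicle-treated mice. Per the study's methods and the submitters' processing notes, the authors aligned reads to mm10 with STAR 2.5.0b and estimated FPKM per RefSeq gene and group with Cufflinks 2.2.1. The deposited tables, 1 for each of 6 pairs of groups, hold 1 FPKM value per group and no value per library. They also hold the authors' log2 fold change, test statistic, p-value and q-value columns, which were not used. The FPKM of a group differed between tables by a common factor of 0.963 to 1.002, and each ratio was taken within 1 table. Depth per library is unknown, and no spread, interval or test could be computed.

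Ratios were computed as log2((FPKM + 0.05)/(FPKM + 0.05)) in Python 3.11.15 (numpy 2.4.6, pandas 2.3.3; figures with matplotlib 3.10.9), and the code was tested on simulated data. Members had at least 1 FPKM in 1 of the vehicle groups. The text names the 15 highest and 15 lowest members with a mean of at least 5 FPKM, the first 6 genes and both extremes of each of 62 gene lists, genes named by the study, and Htt, and some genes that the rule returns are not reported here. Members, lists and this rule were chosen with earlier results of these data known. Promoter sequences (GRCm38.p6, the same assembly as mm10) came from RefSeq and matched 10254 of 13461 members.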

Additional observations from a re-analysis of the deposited data

How the results depend on the processing

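No paired analysis was possible because the tables give 1 value per group and none per library. Leaving out single replicates and the fit with a replicate block were not run for the same reason. The 590 higher and 1504 lower members were recounted under 11 other settings. With a pseudocount of 1 FPKM 371 were higher, and with at least 1 FPKM in both groups 388. A mean of at least 5 FPKM gave 284 higher and 886 lower, and a minimum of 0.1 FPKM gave 991 and 2275. A log2 limit of 1 gave 175 higher and 463 lower, and a limit of 0.25 gave 2182 and 3219, which moved the lower share of all genes past the fold from 71.8% to 59.6%. Of the 62 lists, leaving aside families split off later, the list of interferon-stimulated genes was the only 1 with a median over 0.5, and 0 lists had one with a pseudocount of 1 FPKM, with at least 1 FPKM in both groups or with a mean of at least 5 FPKM. Without short RNA loci, an alternative chosen after seeing the data, genes past the fold between groups of the same genotype went from 526 to 269 in wild type and from 399 to 164 in R6/1. Of 557 recomputed list medians 513 moved by less than 0.07, the median absolute log2 ratio between the wild type groups, 44 moved by more, and 0 medians past the fold changed sign. The missing spread between mice limits every value, and low levels limit the counts of higher genes.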

Other observations

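Further gene groups were chosen after the values had been seen and are given as a description. On the X chromosome, 46 of 462 members were higher (9.96%) and 23 were lower (4.98%), with a median log2 ratio of 0.16, against 2.90% higher and 10.1% lower on all other chromosomes (median -0.01). In windows of 3 Mb with at least 15 members, 2 adjacent windows from 132 to 138 Mb on the X chromosome (mm10) had the highest medians of all 322 windows (0.38 and 0.38), and together 13 of their 46 members were higher and 3 were lower. Outside this stretch 33 of 416 members of the chromosome were higher (7.93%). The stretch holds the Armcx, Gprasp, Bex and Tceal families of placental mammals, which are expressed in neurons. Of 17 members of these families 5 were higher and none was lower (median 0.38), and 5 were higher in the RGFP109 mice (median 0.40). Gprasp2 had 40.2 FPKM in WT-vehicle and 79.2 FPKM in R6/1-vehicle (0.98; 0.82 in the RGFP109 mice), and Bex1 had 75.6 FPKM in WT-vehicle and 98.1 FPKM in R6/1-vehicle (0.38). Between groups of the same genotype none of the 17 passed the fold.

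Zinc finger genes named Zfp, Zkscan or Zscan were mostly above 0 in ratio. Of 337 members 28 were higher (8.31%) and 5 were lower (1.48%), and 261 had a ratio above 0 (median 0.18). In the RGFP109 mice 12 were higher and 1 was lower (median 0.13). The shares of all members in the vehicle mice were 3.14% higher and 9.96% lower. At a mean of 3 to 10 FPKM 3.49% of all members were higher and 8.27% lower, and at 1 to 3 FPKM 8.06% and 16.8%. Of the 28, 7 were under 1 FPKM in WT-vehicle and members only through R6/1-vehicle, and among the 326 with at least 1 FPKM in both groups 21 were higher (median 0.17). The median within wild type was 0.03 and within R6/1 0.01. Their levels were low, with a median of 4.91 FPKM. Zfp458 had the highest ratio, at 0.638 FPKM in WT-vehicle and 1.37 FPKM in R6/1-vehicle (1.05; 0.44). Zfp365, an abundant exception, had 149 FPKM in WT-vehicle and 95.8 FPKM in R6/1-vehicle (-0.64). Many of these genes are close copies of each other, and reads can be split between them.

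Collagen genes were mostly negative, with 13 of 28 lower and 2 higher (median -0.40, and -0.28 in the RGFP109 mice). The shares of all members were 9.96% lower and 3.14% higher. Of the 28, 5 also passed the fold between the wild type groups and 4 between the R6/1 groups. Of the 13 lower, 5 were under 1 FPKM in R6/1-vehicle and members only through WT-vehicle. Among the 22 with at least 1 FPKM in both groups 8 were lower and 2 were higher (median -0.28). Col5a1 had 4.18 FPKM in WT-vehicle and 1.11 FPKM in R6/1-vehicle (-1.86), and Col6a1, the most abundant, had 67.2 FPKM in WT-vehicle and 44.4 FPKM in R6/1-vehicle (-0.60). Of 7 genes of oligodendrocyte precursors 1 was lower (14.3%), near the 9.96% of all members.

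The genes for interferon-inducible GTPases were all above 0 in ratio. Of 5 members 4 were higher, against 3.14% of all members (median 0.58, and 0.62 in the RGFP109 mice). Igtp had 1.98 FPKM in WT-vehicle and 3.39 FPKM in R6/1-vehicle (0.76). The fifth, Irgm2, lay just within the fold with 0.940 FPKM in WT-vehicle and 1.35 FPKM in R6/1-vehicle (0.50).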
